A study of Mus musculus with 15 samples.

Results

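The 10 genes described here mark neurons that use GABA, among them those of the thalamic reticular nucleus: Gad1, Gad2, Slc32a1, Pvalb, Sst, Six3, Gata3, Sox14, Penk and Ecel1. They were taken by name, as the rows of these symbols in the file of every library, and all 10 were found among the 29659 genes listed. Bulk RNA-seq of polyA RNA had measured them in thalamic tissue of 4.5-month-old mice, in 15 libraries of 4 genotypes. The 5EL group (n = 5) carried the 5xFAD amyloid transgenes with human APOE4 knocked in (APOE4+/+) and an intact Lilrb4a gene. The 5ELKO group (n = 4) carried 5xFAD and APOE4+/+ and lacked Lilrb4a (Lilrb4a-/-). The EL group (n = 3) was APOE4+/+ with Lilrb4a intact, and the ELKO group (n = 3) APOE4+/+ and Lilrb4a-/-, both without 5xFAD. Every mouse thus carried human APOE4 in place of mouse Apoe by its label, no group had wild-type Apoe, and the deletion was not restricted to one cell type. Nothing in the labels says whether the EL and ELKO libraries share litters or days with the others.

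Neurons that use GABA, the main inhibitory transmitter of the brain, make it from glutamate with glutamate decarboxylase, and load it into synaptic vesicles with a dedicated transporter. Most neurons of the rodent thalamus are glutamatergic relay cells. The reticular nucleus is a thin shell of GABAergic cells around the relay nuclei, which receives collaterals from thalamus and cortex and inhibits the relay cells, and many of its cells hold parvalbumin or somatostatin. Local interneurons are few in most nuclei of the rodent thalamus and come largely from midbrain progenitors that express Sox14.

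The deposited values are on a log2 scale, and their transform is not named, so no read depth can be derived from them and precision rests on the spread between libraries. The deleted gene itself, Lilrb4a, reached no more than 2.33 across the 7 ELKO and 5ELKO libraries, and the lowest of the 8 with an intact gene had 2.34, a narrow margin near the floor of the scale. Mouse Apoe was 10.9 in ELKO replicate 1, against 5.92 to 6.37 in the other 14 libraries, and this library goes against its label in that respect. A list of 12 choroid plexus genes averaged 8.50 in 5EL replicate 1 and 8.89 in ELKO replicate 2, and 6.15 to 6.73 elsewhere. A gene was tested if it reached 3.32 (a linear value of 10) in at least 3 of 15 libraries, or in 4 of 9 for 5ELKO against 5EL. Of the 10 genes, 8 passed, and Gata3 and Sox14 did not. In tissue of mixed cells, fewer cells of a type and less RNA per cell cannot be told apart, which holds for every value below.

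The promoters of the 5 genes whose levels moved most closely together across libraries are shown here, since their likeness is the main pattern described below. Each is the 300 bases that RefSeq gives around a start site on GRCm38.p6, 250 before the site and 50 from it on, written 5′ to 3′ on the strand of the gene. Capitals mark letters of 3 motifs, searched on both strands: the cAMP response element TGACGTCA, the TATA box TATAAA and the CCAAT box CCAAT. Sst lies at chr16:23890795-23891094 on the minus strand, Gad1 at chr2:70561879-70562178, Gad2 at chr2:22622077-22622376, Slc32a1 at chr2:158610508-158610807 and Six3 at chr17:85620584-85620883, all 4 on the plus strand.
Sst: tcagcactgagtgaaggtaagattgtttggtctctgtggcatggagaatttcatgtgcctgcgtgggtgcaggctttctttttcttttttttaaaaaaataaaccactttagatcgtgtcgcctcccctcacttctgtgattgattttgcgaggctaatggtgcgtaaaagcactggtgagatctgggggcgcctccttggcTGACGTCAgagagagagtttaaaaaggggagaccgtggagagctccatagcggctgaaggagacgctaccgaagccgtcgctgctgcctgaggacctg
Gad1: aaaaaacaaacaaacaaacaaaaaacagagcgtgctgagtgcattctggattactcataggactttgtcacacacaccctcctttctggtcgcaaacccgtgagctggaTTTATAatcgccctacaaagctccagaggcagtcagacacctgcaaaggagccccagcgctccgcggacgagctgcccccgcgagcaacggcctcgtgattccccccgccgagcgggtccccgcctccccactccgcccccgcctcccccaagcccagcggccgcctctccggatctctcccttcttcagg
Gad2: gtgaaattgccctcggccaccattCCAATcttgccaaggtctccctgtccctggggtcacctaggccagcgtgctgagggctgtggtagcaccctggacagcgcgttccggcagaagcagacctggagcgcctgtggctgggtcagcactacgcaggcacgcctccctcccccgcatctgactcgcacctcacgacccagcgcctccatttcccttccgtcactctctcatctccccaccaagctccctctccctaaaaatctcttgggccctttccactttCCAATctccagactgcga
Slc32a1: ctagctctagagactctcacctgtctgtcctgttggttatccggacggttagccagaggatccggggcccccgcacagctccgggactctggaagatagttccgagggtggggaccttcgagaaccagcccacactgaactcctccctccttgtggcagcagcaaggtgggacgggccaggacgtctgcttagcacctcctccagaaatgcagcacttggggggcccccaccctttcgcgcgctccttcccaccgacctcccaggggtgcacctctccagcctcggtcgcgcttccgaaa
Six3: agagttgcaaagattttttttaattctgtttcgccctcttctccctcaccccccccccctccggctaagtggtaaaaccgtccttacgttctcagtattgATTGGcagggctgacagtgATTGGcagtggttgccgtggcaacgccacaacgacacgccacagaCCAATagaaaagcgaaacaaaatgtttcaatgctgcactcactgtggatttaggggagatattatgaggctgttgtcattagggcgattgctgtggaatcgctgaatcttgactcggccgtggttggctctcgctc
The response element in the Sst promoter began at base -48 from the start site, and it is the element through which cAMP is known to act on this gene. It occurred in 1.79% of the 32851 promoters of the RefSeq table. Gad1 held 1 TATA box at base -141, on the opposite strand, a motif present in 13.6% of promoters. Gad2 held 2 CCAAT boxes, at -226 and 32, and Six3 held 3, between -150 and -86, where 37.4% of promoters held at least 1. Slc32a1 held none of the 3 motifs in this window. The 5 windows thus shared no one motif of the 3 searched. A match is a description of letters only. RefSeq sequences were found for 9 of the 10 genes.

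The level of each gene was first set per length, as the log2 value less the log2 of the kilobases of its annotated exons (GENCODE M21, GRCm38), so that genes can be compared with each other. Over the 15 libraries Pvalb, a calcium-binding protein of fast-spiking neurons, stood highest on this scale at 9.66 ± 0.49 (SD, n = 15), and Sst, the precursor of the peptide somatostatin, followed at 9.51 ± 0.64. The decarboxylase genes Gad2 and Gad1 stood at 8.38 ± 0.85 and 7.89 ± 0.95, and Slc32a1, the vesicular GABA transporter, at 7.72 ± 0.74. Penk, which encodes the precursor of the enkephalins, had a per-kilobase log2 level of 6.76 ± 0.44, and Ecel1, a membrane metallopeptidase of neurons, one of 6.72 ± 0.57. Six3, a homeodomain transcription factor of the reticular nucleus and the striatum, stood at 5.93 ± 0.71. The order of neighbours was not the same in every library for 5 steps. Pvalb was above Sst in 10 of 15 libraries, Gad1 above Slc32a1 in 11 and Penk above Ecel1 in 8, and these differences in level (0.15, 0.17 and 0.04) were smaller than their SD over the libraries (0.59, 0.325 and 0.22). Gad2 was above Gad1 in 14 of 15 and Ecel1 above Six3 in 14, and the other steps held in all 15. With the length of the longest transcript in place of all exons, Gad1 stood at 8.97, above Gad2 at 8.41, so the order of these 2 enzymes depends on the length used.

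The remaining transcription factors were near the floor of the data. Gata3, which acts in GABAergic neurons of midbrain origin, had log2 values from 2.65 to 2.97 in the 15 libraries, with group means between 2.71 and 2.79. Sox14, the factor of midbrain-derived thalamic interneurons, ranged from -0.01 to 0.05. The deposited transform leaves little spread at such levels, so neither gene can be read as more than low. The GABA transporter can also be set beside the vesicular glutamate transporter of relay cells, Slc17a6, which stood at 11.39 ± 0.10 per kilobase. The ratio of Slc17a6 to Slc32a1 per kilobase had a median of 11.6 over the libraries. It was lowest in 5ELKO replicate 3, at 6.71, and highest in EL replicate 3, at 45.5. Slc17a6 itself ran only from 11.2 to 11.6 on the per-kilobase log2 scale, while Slc32a1 ran from 5.88 to 8.51.

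The values that follow are log2 values as deposited, library by library, and compare one gene between libraries. Gad1 stood at 9.37, 11.60, 10.80, 11.35 and 11.35 in 5EL replicates 1 to 5 and at 11.25, 11.20, 11.90 and 11.69 in 5ELKO replicates 1 to 4, on the log2 scale. The EL libraries stood at 10.37, 11.10 and 8.60 and the ELKO libraries at 11.03, 11.21 and 9.52, again in the order of their replicate numbers. Gad1 (chr2:70553072-70602014), the decarboxylase that makes most of the GABA of the cell body and axon, was lowest in EL replicate 3, 5EL replicate 1 and ELKO replicate 3, and these 3 libraries stood apart from the other 12. In 5EL replicates 1 to 5, Gad2 had log2 values of 10.01, 11.74, 10.91, 11.47 and 11.35, and in 5ELKO replicates 1 to 4 of 11.48, 10.99, 11.83 and 11.84. Its values without 5xFAD were 10.84, 10.70 and 8.65 in EL and 11.16, 10.98 and 9.99 in ELKO replicates 1 to 3. The same 3 libraries held the lowest values of Gad2 (chr2:22622205-22693874), the decarboxylase concentrated in nerve terminals. With 5xFAD, the log2 value of Slc32a1 was 8.22, 9.95, 9.30, 9.86 and 9.58 in 5EL replicates 1 to 5 and 9.75, 9.14, 9.99 and 9.90 in 5ELKO replicates 1 to 4. Without 5xFAD it was 9.12, 9.0 and 7.37 in EL replicates 1 to 3 and 9.39, 9.19 and 8.34 in ELKO replicates 1 to 3. Slc32a1 (chr2:158610767-158615748) followed the enzymes, again lowest in EL replicate 3. Its exons share 24.9% of their bases with Gm14205 on the opposite strand. The authors counted without strand, so reads over the shared bases cannot be assigned by strand to either gene. The per-kilobase level of Slc32a1 above divides by all of its exon bases, the shared ones included.

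Sst stood at 8.25, 9.54, 9.54, 9.28 and 9.34 in 5EL replicates 1 to 5 and at 9.02, 9.19, 9.73 and 9.5 in 5ELKO replicates 1 to 4, on the log2 scale. The EL libraries stood at 8.77, 8.95 and 7.25 and the ELKO libraries at 9.45, 9.27 and 8.52, again in the order of their replicate numbers. Sst (chr16:23889573-23890958) was above 9 in each 5ELKO library and was lowest in EL replicate 3. In 5EL replicates 1 to 5, Six3 had log2 values of 7.37, 9.02, 8.09, 8.58 and 8.86, and in 5ELKO replicates 1 to 4 of 8.53, 8.55, 9.29 and 9.13. Its values without 5xFAD were 8.0, 8.59 and 6.82 in EL and 8.57, 8.79 and 7.38 in ELKO replicates 1 to 3. Six3 (chr17:85613608-85629302) had its 3 lowest values in EL replicate 3, 5EL replicate 1 and ELKO replicate 3, as the decarboxylases had. Its exons share 1.9% of their bases with the antisense gene Six3os1 and 3.1% with Gm28528. With 5xFAD, the log2 value of Pvalb was 8.60, 10.0009, 9.57, 10.02 and 10.06 in 5EL replicates 1 to 5 and 9.60, 9.76, 10.29 and 10.28 in 5ELKO replicates 1 to 4. Without 5xFAD it was 8.85, 10.09 and 9.76 in EL replicates 1 to 3 and 9.56, 9.93 and 9.37 in ELKO replicates 1 to 3. Pvalb (chr15:78191114-78206400) differed from the others: EL replicate 3 stood at 9.76, above the 8.85 of EL replicate 1, and the lowest value was that of 5EL replicate 1.

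Penk stood at 7.36, 8.14, 7.79, 7.70 and 7.34 in 5EL replicates 1 to 5 and at 7.82, 7.11, 7.75 and 7.89 in 5ELKO replicates 1 to 4, on the log2 scale. The EL libraries stood at 7.49, 6.94 and 6.39 and the ELKO libraries at 7.69, 7.45 and 7.17, again in the order of their replicate numbers. Penk (chr4:4133531-4138819) varied less, and 5EL replicate 5 was as low as 5EL replicate 1. Its exons share 14.3% of their bases with A830012C17Rik on the opposite strand. In 5EL replicates 1 to 5, Ecel1 had log2 values of 8.42, 9.21, 8.92, 8.62 and 8.45, and in 5ELKO replicates 1 to 4 of 8.75, 8.49, 9.18 and 9.07. Its values without 5xFAD were 8.76, 7.94 and 6.93 in EL and 8.55, 8.58 and 8.06 in ELKO replicates 1 to 3. Ecel1 (chr1:87147655-87156521) was lowest in EL replicate 3 and next lowest in EL replicate 2. For each of these 8 genes the 4 genotypes overlapped, and the plot of values by genotype shows the low libraries as isolated points under their group.

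**Figure D1:**
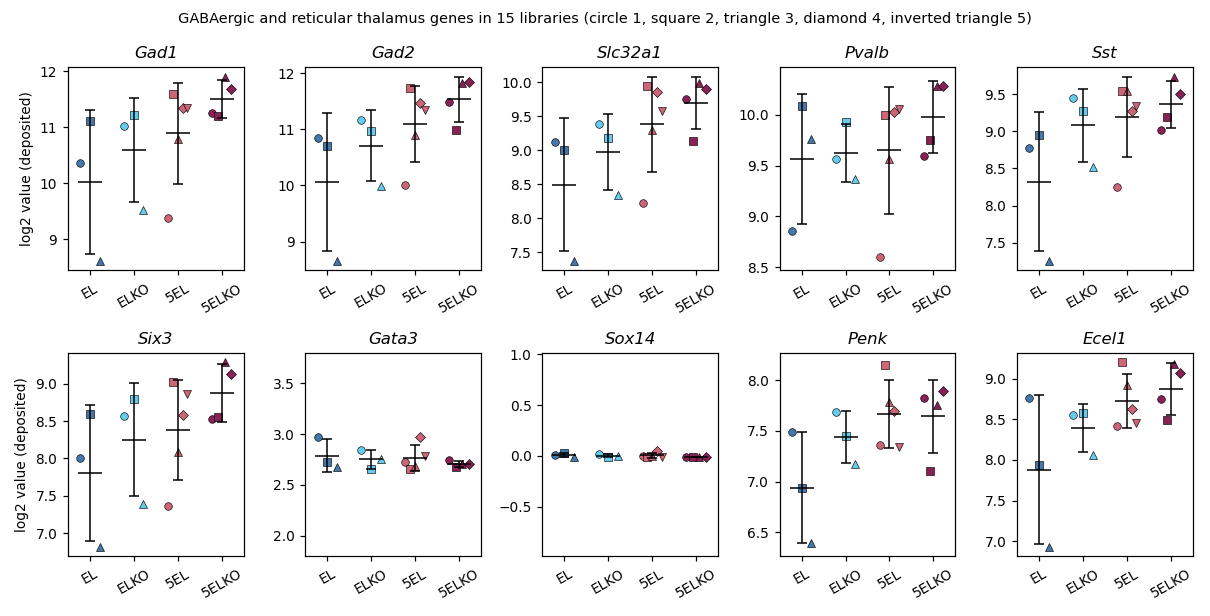
Each panel plots the deposited log2 value of 1 gene (vertical axis) in each library of EL, ELKO, 5EL and 5ELKO (horizontal axis), with the group mean as a dash and the SD as bars, and the marker shape giving the replicate number. EL replicate 3 was the lowest of 15 libraries for 7 of the 8 tested genes, and Gata3 and Sox14 lay flat within 0.32 and 0.07 of range.

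Among libraries of one genotype, these genes spread far more than most. The within-group SD over 11 degrees of freedom was 0.89 for Gad1, which ranked 9 of 15804 tested genes, 0.75 for Gad2 (rank 24), 0.68 for Six3 (rank 30) and 0.67 for Slc32a1 (rank 32). It was 0.58 for Sst, 0.51 for Pvalb, 0.49 for Ecel1 and 0.38 for Penk, where the median of all tested genes was 0.098 and the 99th percentile 0.409. Thus 7 of 8 genes were among the 1% of genes with the largest spread, and 8 of 8 among the top 5%. From the lowest to the highest library the level differed 9.85-fold for Gad1, 9.15-fold for Gad2, 6.17-fold for Slc32a1, 5.59-fold for Sst and 5.54-fold for Six3. For Ecel1, Penk and Pvalb it differed 4.84-fold, 3.37-fold and 3.23-fold. Wide ranges were not particular to these genes. Of the habenula markers, Nwd2 ran from 8.24 to 11.27 and Gpr151 from 7.61 to 10.08 in log2 value, both lowest in EL replicate 3. The pan-neuronal gene Snap25 ran only from 15.15 to 15.59.

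**Figure D2:**
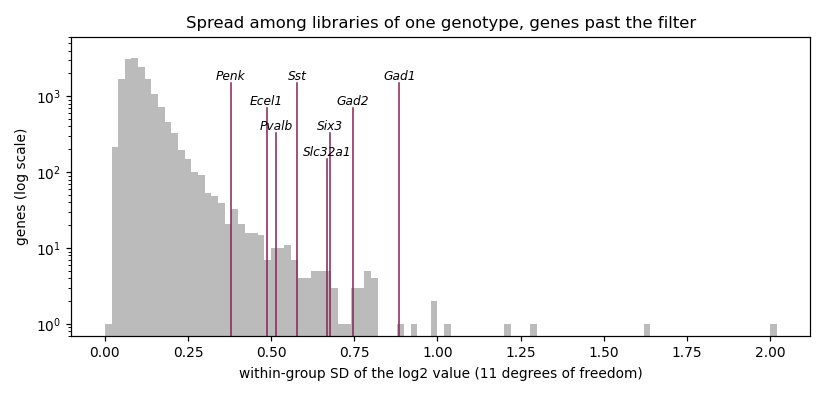
The bars count the 15804 tested genes (vertical axis, log scale) by the within-group SD of their log2 values (horizontal axis), and the lines mark the 8 genes described. Gad1, at 0.89, lay farthest right of the 8, and Penk, at 0.38, was nearest to the bulk of genes, whose median was 0.098.

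The deviations from the group mean ran together within libraries. All 8 genes lay below their group mean in 5EL replicate 1 (median deviation -1.03), in ELKO replicate 3 (-0.59) and in 5ELKO replicate 2 (-0.35), and 7 of 8 did in EL replicate 3 (-1.03). All 8 lay above it in 5EL replicate 2 (0.52), 5ELKO replicate 3 (0.31), 5ELKO replicate 4 (0.22) and ELKO replicate 2 (0.24). The highest value of the 15 libraries was in 5ELKO replicate 3 for 5 of 8 genes. The map of deviations shows these values.

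**Figure D3:**
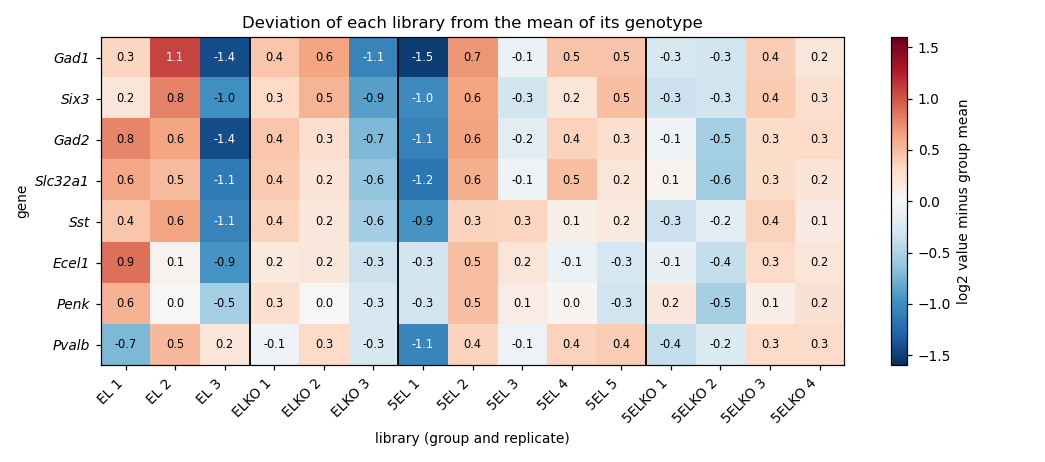
The colour and the number in each cell give the log2 value of a gene (rows) less the mean of its genotype, for each of the 15 libraries (columns, grouped by genotype). EL replicate 3, ELKO replicate 3 and 5EL replicate 1 form blue columns across the rows, broken in EL replicate 3 by Pvalb, which was 0.2 above its group mean.

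To ask which of the genes varied together, the group-centred values of each pair were compared over the 15 libraries, with permutation within groups (100000 resamples, two-sided) and adjustment over all 45 pairs. Of the 45 pairs, 16 passed an adjusted p of 0.05, all of them among the 28 pairs in which both genes had passed the filter. The closest pair was Gad2 and Slc32a1, the enzyme and the vesicular transporter of GABA, with Pearson r = 0.988 and Spearman rho = 0.982 (permutation p = 1e-05, the smallest that the resamples can give, adjusted p = 0.00045). Gad1 and Six3 had r = 0.980 and rho = 0.954 (adjusted permutation p = 0.0009). The 10 pairs formed by Gad1, Gad2, Slc32a1, Sst and Six3 all passed, with r from 0.898 to 0.988 and rho from 0.746 to 0.982, the highest adjusted permutation p of r being 0.0172. These genes were grouped for their likeness in the same values, so that all 10 passed is a description and not a further test. The same libraries stand behind every pair, so the pairs are not independent of each other.

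Penk and Ecel1 formed a second close pair, with r = 0.908 and rho = 0.857 (adjusted permutation p = 0.0039), while r to Gad1 was 0.605 and 0.671, and did not pass. Both were nearer to Gad2, at r = 0.789 for Penk and r = 0.826 for Ecel1 (adjusted permutation p = 0.0169 and 0.0113). Pvalb stood apart by Pearson's measure, with r = 0.400 to Gad2, 0.606 to Gad1 and 0.637 to Six3 and none at an adjusted p under 0.05. By rank it was like Gad1 (rho = 0.807, adjusted permutation p = 0.0173) and Six3 (rho = 0.764, adjusted permutation p = 0.019). Its r was 0.032 to Penk and -0.016 to Ecel1. Without the 2 libraries farthest from the median, which were EL replicate 3 and 5EL replicate 1, r stayed between 0.675 and 0.983 within the 10 pairs of the first 5 genes. Over the 13 libraries without those 2, 4 pairs passed an adjusted permutation p of 0.05, in place of 16: Gad2 and Slc32a1 (r = 0.983), Gad1 and Six3 (r = 0.977), Penk and Ecel1 (r = 0.880), and Pvalb and Six3 (r = 0.758).

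**Figure D4:**
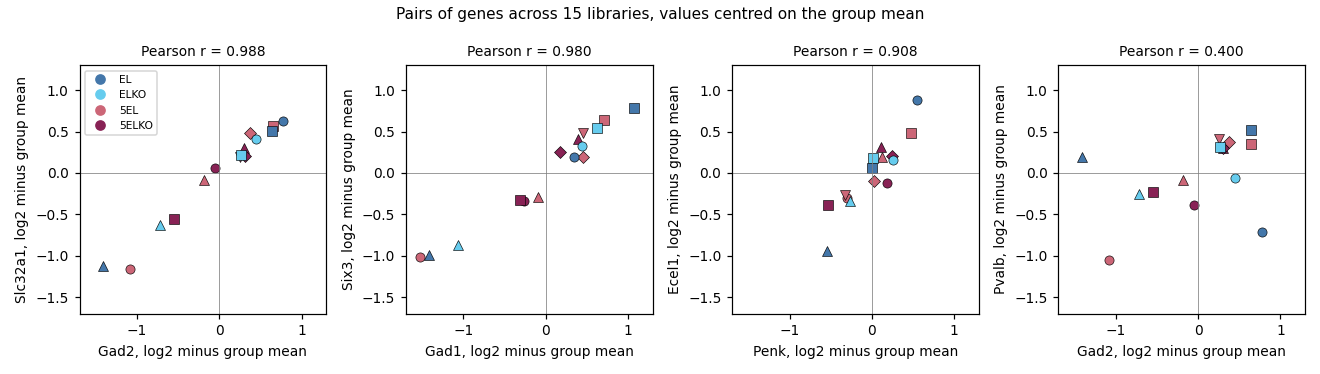
Each panel sets 2 genes against each other over the 15 libraries, as log2 values less the group mean on both axes, coloured by genotype and shaped by replicate number. Gad2 with Slc32a1 (r = 0.988), Gad1 with Six3 (r = 0.980) and Penk with Ecel1 (r = 0.908) lie near a line, and Gad2 with Pvalb (r = 0.400) does not: EL replicate 3 (blue triangle) is low in Gad2 and not in Pvalb.

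The genes of the whole table whose group-centred values were most like each of the 8 were then listed, as a description over 15 libraries with no test, since they were chosen from all 15804 tested genes for their likeness. The nearest to Gad1 were Six3 (r = 0.980), Ubash3b, a phosphatase (0.959), and Lgi2, a secreted neuronal protein (0.950). Gad2 was followed by Slc32a1, Cygb, which encodes cytoglobin (r = 0.971), and Lbh (0.963). Slc32a1 had Gad2, Klhl1 (r = 0.965) and the homeodomain factor Meis2 (0.954), and Sst had Gad1 (0.940), Gad2 (0.926) and Cygb (0.924). Six3 had Gad1, its antisense neighbour Six3os1 (r = 0.977) and Ubash3b (0.976), and Six3os1 overlaps it, as given above. Penk was nearest to Magel2 (r = 0.949), Irs4 (0.934) and Gpr101 (0.932), which are known for their expression in the hypothalamus. Ecel1 was nearest to Hpcal1, a neuronal calcium sensor (r = 0.970), Fchsd1 (0.959) and Mrap2, a partner of melanocortin receptors (0.959). Pvalb had none of the 8 among its nearest, which were Slc39a13, a zinc transporter (r = 0.923), Gm2115 (0.920) and Grsf1, an RNA-binding protein (0.903).

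Each gene was also set beside 12 lists, each scored per library by averaging the log2 values of its tested genes: 4 of GABAergic and fast-spiking neurons and 8 that mark other regions or all neurons. Some genes stand in more than one list, such as Calb2, Tac1 and Otx2. Of the 96 relations of 8 genes with 12 lists, 38 passed an adjusted permutation p of 0.05 for Pearson r. The list of GABAergic lineage transcription factors went with 7 of 8 genes (r from 0.816 to 0.938), most closely with Gad2, and the interneuron peptides and markers with 6 of 8 (r from 0.775 to 0.936). By rank, Gad1 and Six3 did not pass with the transcription factors (adjusted permutation p = 0.0509 each). Nor did Gad1 with the interneuron list (adjusted permutation p = 0.0601). The 11 other genes of GABA synthesis, uptake and breakdown (Glul, Slc6a11 and Abat the most abundant) went with 0 of 8, and so did the score of the 18 reticular and fast-spiking genes (r from -0.117 to 0.489), although Pvalb followed the latter by rank (rho = 0.729, adjusted permutation p = 0.0477). That score averages genes that moved in different ways. Cacna1i (8.56), Spp1, Hapln1 and Tnr were lowest in EL replicate 3, and Cplx1, Kcnc2, Scn1a and Nefh were highest there. The lists of habenula and midbrain markers went with 7 of 8 genes each, with r up to 0.897 and 0.908, and the hypothalamus list with Sst, Penk and Ecel1 (r = 0.653, 0.771 and 0.712). By rank, the midbrain list passed with Gad2, Slc32a1 and Penk only, with rho = 0.450 for Six3 (adjusted permutation p = 0.284). The habenula list did not pass by rank with Penk (adjusted permutation p = 0.102). Without the 2 libraries farthest from the median of each list, r for the 7 genes ran from 0.685 to 0.844 for habenula and from 0.568 to 0.884 for midbrain. The cortex and hippocampus list went with Ecel1 alone (r = 0.849), and not by rank (rho = 0.607, adjusted permutation p = 0.106). The striatum and choroid plexus lists went with 0 of 8. The r of the choroid plexus list lay between -0.248 (Pvalb) and 0.065 (Ecel1) over all libraries, and between 0.238 (Pvalb) and 0.838 (Sst) without 5EL replicate 1 and ELKO replicate 2, the highest libraries for that list. The latter values are a description, with no test.

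The relay neuron list moved the other way, with r between -0.770 and -0.719 for 7 of 8 genes (highest adjusted permutation p = 0.0157), and -0.505 for Pvalb, which did not pass. Its score was highest in EL replicate 3, at 12.41, and lowest in 5EL replicate 2, at 11.98. Its most abundant genes were Slc17a6 and Prkcd, a kinase of relay neurons, and Prkcd, between 13.22 and 14.72 in every library, was highest in EL replicate 3. The pan-neuronal score, in contrast, ran only from 13.01 to 13.14 and went with 0 of 8 genes. In EL replicate 3 the habenula score was 6.82, the lowest of a range up to 9.03, with Nwd2 at 8.24 and Gpr151, a receptor of habenular neurons, at 7.61, and Calb2, in both the relay and the interneuron list, was 10.72 against a mean of 12.53. The part of these other regions in the values of the 8 genes was not tested.

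5ELKO was compared with 5EL to ask whether deleting Lilrb4a changed these genes in mice with amyloid, a contrast that the study also made. The study lists 5 libraries of 5ELKO and used DESeq2, while 4 libraries of 5ELKO were at hand here. None of the 8 tested genes passed a nominal p of 0.05 (limma), where 2.49% of the 15743 tested genes did, and none passed after Benjamini-Hochberg adjustment, where 0.0191% (3 genes) did. The difference was positive for 7 of 8 genes, against 51% of all tested genes, with a median of 0.32. Most of these genes varied together across libraries, so their signs are not independent of each other, here and in the contrasts below. The groups overlapped for all 8 genes, as they did for all tested genes but 1.06%. The largest was that of Gad1, with 11.51 ± 0.34 (SD, n = 4) in 5ELKO and 10.89 ± 0.90 (n = 5) in 5EL, a log2 difference of 0.62 with SE 0.36 (limma, p = 0.117, adjusted p = 0.999, exact permutation p = 0.262). Six3 differed by 0.49 (95% interval -0.14 to 1.12), Gad2 by 0.44 (-0.19 to 1.08), Pvalb by 0.33 (-0.25 to 0.91) and Slc32a1 by 0.31 (-0.33 to 0.96). Sst, Ecel1 and Penk differed by 0.17, 0.15 and -0.02. Without 5EL replicate 2, Six3 alone passed a nominal p of 0.05 (difference 0.65), as did 3.35% of all tested genes, and it did not pass after adjustment. Without 5EL replicate 1 the difference of Gad1 was 0.23, that of Gad2 0.17 and that of Slc32a1 0.02, and the median over the 8 genes 0.07.

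Few genes of the lists around them were called in this contrast. At a nominal p of 0.05 the calls were 0 of 11 genes of GABA synthesis, uptake and breakdown, 1 lower and 0 higher of 22 GABAergic transcription factors, 1 lower and 0 higher of 16 interneuron genes and 0 of 18 reticular and fast-spiking genes. The transcription factor was Tal1, which acts in GABAergic neurons of the midbrain and is also in the midbrain list, with a log2 difference of -0.16 (limma p = 0.0208, exact permutation p = 0.0159, adjusted p = 0.999). The interneuron gene was Pdyn, the precursor of the dynorphin peptides, at 7.10 ± 0.25 in 5ELKO and 7.47 ± 0.21 in 5EL (log2 difference -0.37, limma p = 0.0118, exact permutation p = 0.0476, adjusted p = 0.999). Without 5EL replicate 1 the counts were 0 of 22 transcription factors and 2 of 16 interneuron genes lower, the other 2 lists still having none. Among the 8 lists of other regions and of all neurons, the midbrain list alone had calls, 2 of 6 genes lower in 5ELKO. Leaving out 5EL replicate 1 gave calls for 5 of 9 habenula genes, 1 of 6 midbrain genes and 1 of 11 striatum genes lower in 5ELKO, and 1 of 12 choroid plexus genes higher and 1 lower, where 3.07% of all tested genes were called.

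ELKO was compared with EL for the same deletion without amyloid. None of the 8 genes passed a nominal p of 0.05 (limma on all 15 libraries), where 2.35% of 15804 tested genes did, and 0 of 15804 passed after adjustment. All 8 differences were positive, against 51.7% of all tested genes, with a median of 0.51. The groups overlapped for all 8, and did not for 4.59% of all tested genes. Sst had 9.08 ± 0.49 (n = 3) in ELKO and 8.32 ± 0.93 (n = 3) in EL, a difference of 0.76 with SE 0.40 (limma p = 0.0802, exact permutation p = 0.3, where 3 against 3 cannot go below 0.1). Penk differed by 0.50 (limma p = 0.0828, exact permutation p = 0.3), Gad2 by 0.64, Gad1 by 0.56, Ecel1 by 0.52, Slc32a1 by 0.47, Six3 by 0.45 and Pvalb by 0.05. Without EL replicate 3 the median difference was 0.00 and 4 of 8 were positive, with Gad1 at -0.15, Gad2 at -0.06 and Slc32a1 at -0.09. Without EL replicate 3 and ELKO replicate 3 together, the lowest library of each group for Gad1 and an alternative chosen after seeing the data, all 8 were positive with a median of 0.32, Gad1 at 0.38, Gad2 at 0.30 and Sst at 0.50. In that fit 0 of 8 passed a nominal p of 0.05, where 2.75% of all tested genes did. Without ELKO replicate 1, which goes against its label in mouse Apoe, Sst differed by 0.57, Gad2 by 0.42 and Gad1 by 0.34, and without ELKO replicate 2 by 0.67, 0.51 and 0.25. In either fit 0 of 8 passed a nominal p of 0.05, where 2.2% and 1.21% of all tested genes did. The count at a nominal p of 0.05 was 3 of 8 without EL replicate 1 (Sst, Penk and Ecel1), where 11.6% of all tested genes were called. It was 1 of 8, Sst, without EL replicate 2, ELKO replicate 3 or 5EL replicate 1, where 2.21%, 8.7% and 2.25% of all tested genes were called.

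Over all tested genes the EL and ELKO libraries of equal number strayed from their group means in a similar way, so the replicate number was also fitted as a block. No label gives this pairing, which was taken from the same values. With the block 3 of 8 genes were higher in ELKO at a nominal p of 0.05, namely Sst, Penk and Ecel1 (limma, adjusted p = 0.772 for each), where 3.49% of 15804 genes were higher at that threshold and 6.31% were called in either direction. In the pairs of replicates 1, 2 and 3, Sst was higher in ELKO by 0.68, 0.32 and 1.27, and Penk by 0.20, 0.51 and 0.78. Gad1 was higher by 0.66, 0.11 and 0.92, and Gad2 by 0.32, 0.28 and 1.34. Slc32a1 was higher by 0.27, 0.19 and 0.97, and Six3 by 0.57, 0.20 and 0.56. So 6 of 8 genes were higher in all 3 pairs, as were 14.9% of all tested genes. Ecel1 was lower in the first pair (-0.21) and Pvalb was higher in the first only. The third pair had the largest difference for Gad1, Gad2, Slc32a1, Sst, Penk and Ecel1, and both of its libraries were low in these genes. Of the lists, the interneuron list had 1 of 16 genes higher, Chodl, a membrane lectin of somatostatin neurons (0.20, limma p = 0.0172, exact permutation p = 0.1, adjusted p = 0.998), and the other 3 had none. Without EL replicate 3 the interneuron list had 0 of 16 called, and without ELKO replicate 3 it had 6 of 16 higher and 1 lower, where 8.7% of all tested genes were called. The relay list had 1 of 13 genes lower in ELKO, and 0 without EL replicate 3.

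**Figure D5:**
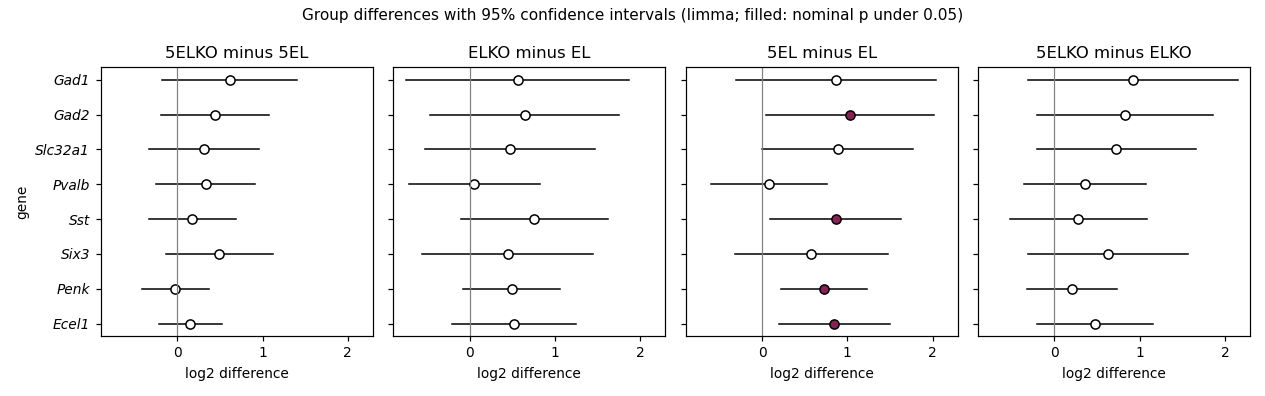
Points give the log2 difference of each tested gene (rows) in 4 group contrasts (panels, horizontal axis in log2 units), with lines for the 95% confidence interval of the limma fit, and filled points for a nominal p under 0.05. The filled points are Gad2, Sst, Penk and Ecel1 in 5EL minus EL, and every other interval includes 0.

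5EL was compared with EL to set amyloid against no amyloid with Lilrb4a intact. It shares the EL libraries with the last comparison. At a nominal p of 0.05, 4 of 8 genes were higher in 5EL (limma), where 3.82% of 15804 tested genes were higher and 7.7% were called in either direction, and 0 of 15804 passed after adjustment. Penk, at 7.67 ± 0.33 (n = 5) and 6.94 ± 0.55 (n = 3), differed by 0.73 with SE 0.24 (p = 0.00818, exact permutation p = 0.0714). Ecel1 differed by 0.85 with SE 0.31 (p = 0.014, exact permutation p = 0.0893), Sst by 0.86 with SE 0.36 (p = 0.0303, exact permutation p = 0.125) and Gad2 by 1.03 with SE 0.46 (p = 0.0423, exact permutation p = 0.143), a 2.04-fold level. Their adjusted p was 0.63 in each case. Slc32a1 differed by 0.89 (limma p = 0.0504, exact permutation p = 0.179), Gad1 by 0.87 (-0.31 to 2.04), Six3 by 0.58 (-0.32 to 1.48) and Pvalb by 0.08 (-0.60 to 0.77), with 95% intervals in brackets. The sign was positive for all 8 genes, as for 50.2% of all tested genes, and the groups overlapped for all 8, as for all but 3.26% of tested genes. The count moved with EL replicate 3: 0 of 8 genes passed without it. The median difference was then 0.32 in place of 0.86, and 2.24% of all tested genes were called. Without it and 5EL replicate 1 together, an alternative chosen after seeing the data, 3 of 8 passed, as did 2.75% of all tested genes. All 8 differences were positive in that fit, with a median of 0.53. In the fit without 5EL replicate 1, 6 of 8 passed, as did 6.99% of all tested genes. Without 5EL replicate 2, 3 or 5, 2 of 8 passed, namely Penk and Ecel1, as did 5.84%, 7.14% and 7.26% of all tested genes. Without 5EL replicate 1, ELKO replicate 1 and ELKO replicate 2 together 7 of 8 did, as did 7.9% of all tested genes.

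The lists moved with the same library. At a nominal p of 0.05, 6 of 23 GABAergic transcription factors were higher in 5EL and 0 lower, 3 of 16 interneuron genes higher and 1 lower, 1 of 11 genes of GABA synthesis, uptake and breakdown higher, and 1 of 18 reticular and fast-spiking genes higher and 1 lower, with 7 of 13 relay genes lower. Dlx1, a factor that specifies forebrain interneurons, differed by 0.74 (exact permutation p = 0.0893) and Dlx5, of the same family, by 0.21 (p = 0.107). Tac1, the precursor of substance P, which is also in the striatum list, differed by 0.62 (exact permutation p = 0.107), Nos1, the neuronal nitric oxide synthase, by 0.72 (p = 0.107), and Cck, the precursor of cholecystokinin, by -0.32 (p = 0.0536). Kcnc2, a potassium channel subunit of fast-spiking cells, differed by -0.29 (exact permutation p = 0.0714), Spp1, which encodes osteopontin, by 0.35 (p = 0.0893), and Pdxk, which makes the cofactor of the decarboxylases, by 0.30 (p = 0.107). The adjusted p of each in the limma fit was 0.63. Without EL replicate 3 the counts were 1 of 23 transcription factors higher, 0 of 16 interneuron genes, 0 of 11 genes of GABA synthesis, uptake and breakdown, 1 of 18 reticular and fast-spiking genes lower and 2 of 13 relay genes lower. Without 5EL replicate 1 they were 10 of 23 transcription factors and 4 of 16 interneuron genes higher, and 10 of 13 relay genes lower. Whether the relay genes bear on the values of the GABAergic genes was not tested.

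5ELKO was compared with ELKO for amyloid on the deleted background. None of the 8 genes passed a nominal p of 0.05 (limma on all 15 libraries), where 2.37% of 15804 tested genes did, and 0 of 15804 passed after adjustment. All 8 differences were positive, against 49.7% of all tested genes, with a median of 0.55. The groups overlapped for all 8, and did not for 3.4% of all tested genes. Gad1 differed by 0.92 with SE 0.58 (limma p = 0.130, exact permutation p = 0.0571), Gad2 by 0.83 (p = 0.109, exact permutation p = 0.0857), Slc32a1 by 0.73, Six3 by 0.63 and Ecel1 by 0.48. Pvalb, Sst and Penk differed by 0.36, 0.28 and 0.21. In a fit of the 7 libraries of these groups alone, where the spread of EL replicate 3 and 5EL replicate 1 does not enter, Gad1, Gad2, Slc32a1 and Ecel1 passed a nominal p of 0.05, as did 2.5% of the 15746 genes tested there, with an adjusted p of 0.999 each. Without EL replicate 3, Gad2 alone did, in the fit of the other 14, as did 2.89% of all tested genes. Without ELKO replicate 1, which goes against its label in mouse Apoe, the median difference was 0.67. In that fit 0 of 8 passed a nominal p of 0.05, where 5% of all tested genes did. ELKO replicate 3 was the low library here, and without it the median difference was 0.27. Of the transcription factors 5 of 23 were higher, with Dlx1 at 0.78 (exact permutation p = 0.0857), Dlx6 at 0.37 (p = 0.0857) and Isl1, a factor of striatal and other ventral forebrain neurons, at 0.51 (p = 0.114), each with an adjusted p of 0.999 in the limma fit. Without ELKO replicate 3, 3 were higher and 1 lower. The other 3 lists, and the relay list, had 0 genes past a nominal p of 0.05.

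The interaction asks whether the deletion acted differently with and without 5xFAD. None of the 8 genes passed a nominal p of 0.05 (limma on all 15 libraries), where 2.73% of 15804 genes did, and 0 of 15804 passed after adjustment. Sst had the largest estimate, -0.59 (95% interval -1.701 to 0.53), followed by Penk at -0.52 (-1.26 to 0.22) and Ecel1 at -0.37 (-1.31 to 0.57). Gad1 stood at 0.05 (-1.65 to 1.75). Of the 8 estimates 3 were positive, with a median of -0.18. In the fit without EL replicate 3, 6 were positive, with a median of 0.29, and Sst stood at -0.05, Penk at -0.25, Ecel1 at 0.10 and Gad1 at 0.77. None of the 8 passed there, where 2.17% of all tested genes did. Without ELKO replicate 1, which goes against its label in mouse Apoe, 5 were positive, with a median of 0.03. Again 0 of 8 passed, where 2.75% of all tested genes did. Without EL replicate 1, Penk (-0.80) and Ecel1 (-0.81) passed, as did 7.78% of all tested genes. Chodl (-0.23) and Kcnc2 (0.29) were the only genes past a nominal p of 0.05 in the 4 lists of GABAergic and fast-spiking neurons, with an adjusted p of 0.9996 each (limma), and 0 of these lists' genes passed without EL replicate 3.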

How the data were processed

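The data were 15 bulk RNA-seq libraries of mouse thalamus, grouped by the genotype in the labels (5EL, 5ELKO, EL, ELKO). Per the study's methods and processing notes, the authors dissected tissue from perfused mice, trimmed reads with Trimmomatic 0.39 after FastQC 0.11.9, aligned them to GRCm38 with HISAT2 2.2.1 and SAMtools 1.16.1, counted read pairs per gene name without strand with featureCounts 2.0.3, and used DESeq2 1.38.3. The authors deposited log2 values of 29659 genes, from -2.27 to 18.98. Neither the transform nor the annotation release is given in the sources used here. The deposited values carry no counts, and the read totals that the study lists for 5EL and 5ELKO libraries were not used here. The study drew its samples from 5EL and 5ELKO mice and lists each such library under a code of its own; for EL and ELKO nothing used here says that each library is 1 mouse, and p-values measure the spread between libraries.

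Group differences were fitted with limma 3.58.1 (lmFit, eBayes with a trend; two-sided) in R 4.3.3, on 9 libraries for 5ELKO against 5EL (15743 genes) and on all 15 otherwise (15804 genes), with Benjamini-Hochberg adjustment over all genes tested. Genes at or above 3.32 in 4 of 9 or 3 of 15 libraries were kept. Single genes were also compared with two-sided exact permutation tests. Correlations used group-centred values, 100000 permutations within groups, adjustment over 45 pairs or 96 relations, and a repeat without the 2 libraries farthest from the median. The fits were tested on simulated data. Exon lengths came from GENCODE M21 (GRCm38), which holds 28214 of the 29659 symbols, and promoters from RefSeq (GRCm38.p6). Plots used matplotlib 3.10.9 in Python 3.11.15.

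The 10 genes and all lists were chosen with earlier results of these data known. Named were the 10 genes, up to 3 genes per GABAergic or fast-spiking list and comparison with the smallest nominal p under 0.05, the most abundant genes of the lists, the 3 genes most like each of the 8, and Lilrb4a. One gene that this rule names is not reported here. Overlapping genes, the most opposed genes, Calb2 and mouse Apoe are named outside this rule, with their values known. Labels number the replicates within each group. Deviations of same-numbered EL and ELKO libraries correlated at 0.453, 0.325 and 0.742, each highest with its own number. The highest correlation of each EL library with an ELKO library of another number was 0.376, 0.295 and -0.465. The margin was thus thin for replicates 1 and 2. No label gives a pairing, and the block rests on these same values, so whether the numbers pair the libraries was not tested. Alternatives were the filter, the variance prior, the libraries in the fit, recentring, the replicate block and leaving out libraries.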

Additional observations from a re-analysis of the deposited data

Results flagged for a closer look

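In 3 of 20 groups of 4 or 5 libraries checked, 1 library lay far from the others, measured as its gap to the nearest library over the range of the group; chance gives about 1 in 20. Sst in 5EL replicate 1 (8.25, the others 9.28 to 9.54) had a gap of 0.798 of the range, over a limit of 0.71 for 5 libraries. Sox14 in 5EL replicate 4 had 0.783 of the range, at a value of 0.05 in a gene near the floor of the data. Penk in 5ELKO replicate 2 (7.11, the others 7.75 to 7.89) had 0.829, at the limit of 0.829 for 4 libraries. EL and ELKO, with 3 libraries each, were not checked, so EL replicate 3 does not appear here.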

How the results depend on the processing

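The number of the 8 genes called at a nominal p of 0.05 (limma), which was 0 in 4 contrasts and 4 in 5EL against EL, moved with the libraries in the fit. With the replicate block it was 3 in 5ELKO against 5EL (Gad1, Pvalb and Six3), 3 in ELKO against EL and 2 in 5EL against EL (Penk and Ecel1). Of all tested genes 2.44%, 6.31% and 9.63% were called in these fits. With only the compared groups in the fit it was 2 in 5EL against EL and 4 in 5ELKO against ELKO, where 5.81% and 2.5% of all tested genes were called. The block is printed beside ELKO against EL alone, where each EL library correlated most with the ELKO library of its own number. Correlations of deviations at equal numbers ran from -0.244 to 0.143 in 5EL and 5ELKO. They ran from 0.054 to 0.228 in 5EL and EL, and from -0.320 to 0.214 in 5ELKO and ELKO. Replicates 1 and 3 of 5EL with EL, and replicate 1 of 5ELKO with ELKO, were also highest at their own number. The labels do not say what any number shares. Without 5EL replicate 1, ELKO replicate 1 and ELKO replicate 2 together it was 7 in 5EL against EL and 4 in 5ELKO against ELKO, which says nothing on stability there, since only ELKO replicate 3, the lowest of its group, was left. Without EL replicate 3 and 5EL replicate 1 together, an alternative chosen after seeing the data, 4 of the 45 pairs were called. The number of genes called was then 3 in 5EL against EL and 3 in 5ELKO against ELKO. Of all tested genes 2.75% and 2.8% were called in these fits. Leaving out 1 library at a time gave 0 to 1 in 5ELKO against 5EL, 0 to 3 in ELKO against EL, 0 to 6 in 5EL against EL, 0 to 1 in 5ELKO against ELKO, and 0 to 2 in the interaction. The share of all tested genes called in these fits ran, in the same order, from 2.04% to 3.35%, 1.21% to 11.6%, 2.24% to 20.3%, 1.71% to 5% and 1.68% to 7.78%.

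Counts over all genes at a nominal p of 0.05 also moved. With no filter on low values they were 912 in 5ELKO against 5EL, 916 in ELKO against EL, 935 in 5ELKO against ELKO and 964 in the interaction, and with a filter at a linear value of 100 they were 241, 224, 210 and 247, with more or fewer genes tested. ELKO against EL had 173 with only its groups in the fit, 997 with the replicate block, and 205 without EL replicate 3 and 5EL replicate 1, which left 435 in 5EL against EL; 5ELKO against ELKO had 1837 without the 3 libraries named above. Leaving out 1 library gave 192 to 1830 in ELKO against EL, 354 to 3204 in 5EL against EL, 270 to 790 in 5ELKO against ELKO and 266 to 1229 in the interaction; the highest count came without ELKO replicate 1 in 5ELKO against ELKO and without EL replicate 1 in the others. Genes at an adjusted p of 0.05 numbered 1 in 5ELKO against 5EL with no filter, 0 with the filter at 100, 0 with all 15 libraries in the fit and 1 with the block, and 1 in 5EL against EL with no filter; leaving out 1 library gave 0 to 4 in 5ELKO against 5EL, 0 to 1 in ELKO against EL, 0 to 31 in 5EL against EL and 0 to 2 in 5ELKO against ELKO. With the longest transcript as length, Gad1 stood at 8.97 and Gata3 at 1.07 per kilobase on the log2 scale. The cause of these moves was not tested. No result reversed its direction after being called. Of 552 fits of single genes with 1 library left out, 524 stayed on the same side of a nominal p of 0.05, mostly for genes with no call to lose. A call was gained in 16 fits and lost in 12. The lost calls were all in 5EL against EL: 6 of 15 fits for Gad2, 4 of 15 for Sst, and 1 of 15 each for Penk and Ecel1. The deposited values carry no counts, so low genes such as Gata3 and Sox14 could not be judged by depth.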

Other observations

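The gene most opposed to each of the 8 in group-centred values over the 15 libraries, as a description with no test, was Pepd, a dipeptidase, for Gad2 (r = -0.937) and Slc32a1 (r = -0.924), and Sprn, a prion-like protein of neurons, for Gad1 (r = -0.895) and Six3 (r = -0.897). For Pvalb it was Pomc, the precursor of hypothalamic and pituitary peptides (r = -0.917), for Sst Tmem232 (r = -0.943), for Penk Tspan14 (r = -0.924), and for Ecel1 Slc25a37, a mitochondrial iron carrier (r = -0.945). The most abundant genes of the GABA synthesis, uptake and breakdown list had smaller ranges than the 8 genes. Slc6a11, an astrocyte GABA transporter, ran from 13.90 to 14.25 over the libraries, Abat, the GABA transaminase, from 13.10 to 13.36 and Glul, glutamine synthetase of astrocytes, from 14.82 to 15.15. The median range of all tested genes was 0.347. In the same list Pdxk ran from 11.36 to 12.23 and Slc38a2 from 11.56 to 12.31.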
